A study of Homo sapiens with 6 samples.

Results

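The genes described here encode the subunits of respiratory complex I and the factors that assemble it. They were chosen by name, as the protein-coding genes of the count table whose symbols begin with NDUFA, NDUFB, NDUFC, NDUFS, NDUFV or NDUFAF. The rule found 46 of the 26347 rows, namely 37 subunits, 8 NDUFAF assembly factors and 1 readthrough gene, NDUFC2-KCTD14, which joins a subunit gene to its neighbour. THP-1 cells, a human monocytic leukaemia line grown in RPMI with 10% FBS, had received either a miR-125a-5p mimic (3 libraries) or a negative control mimic (3 libraries). RNA was taken 24 h later. Both groups share the line and the transfection, and no group of untransfected cells is used here. The study's title speaks of macrophages, whereas the sample labels name monocytic cells and no step of differentiation.

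Complex I is the first enzyme of the respiratory chain. It takes electrons from NADH in the mitochondrial matrix, passes them along a row of iron-sulfur clusters to ubiquinone, and pumps protons across the inner membrane. Its matrix arm holds the redox centres, its membrane arm holds the proton channels, and accessory subunits surround the conserved core. Assembly factors bind or modify parts of the enzyme while it is built and are absent from the finished complex. In monocytes and macrophages complex I is known as a source of reactive oxygen species and as a determinant of inflammatory state.

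A microRNA mimic acts through its seed, bases 2 to 8, which pairs with complementary sites in messenger RNAs. The mature sequence is shown because the sites searched in the complex I genes derive from it, with the seed in capitals (RefSeq, GRCh38.p14, chromosome 19, 51693268 to 51693291, plus strand).
hsa-miR-125a-5p: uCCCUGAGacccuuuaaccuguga

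The longest annotated 3′ untranslated region (3′ UTR) of 5 subunits held an 8mer (CTCAGGGA) or a 7mer (CTCAGGG or TCAGGGA), and none of the 8 NDUFAF factors did. Windows of the best site in 4 of them follow, 5′ to 3′ on the transcript strand, from GENCODE 29 on GRCh38, with the site in capitals. The site of the other one, NDUFB9, an 8mer, is not printed.
NDUFA11 (8mer, final exon, chr19:5895874-5895881, minus strand): ggtattagggCTCAGGGAgggaattaag
NDUFA2 (7mer, final exon, chr5:140645463-140645469, minus strand): aaaatactttCTCAGGGtgttcttgtc
NDUFA5 (7mer, final exon, chr7:123541089-123541095, minus strand): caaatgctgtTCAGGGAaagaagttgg
NDUFA6 (7mer, final exon, chr22:42085795-42085801, minus strand): gctcttcctgTCAGGGAtcagggcagc

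Libraries held 8256149 to 10257791 counts. All 46 genes had 21 to 1665 counts in every library and all passed the filter on low counts, which kept 14731 genes. Levels are given as CPM, the count of a gene relative to the total of its library, with totals adjusted by TMM factors. The first principal component of log2 CPM held 25.0% of the variance and set control library 1 apart, at 38.2 against -16.3 to -1.14 for the other 5 libraries. The second held 21.2% and set miR-125a-5p library 3 apart, at -31.1 against -5.24 to 21.5. The medians of the classes and several members are given also without control library 1, and the plot of fold changes shows both values. The summed level of 14 monocytic markers was 3499 to 3679 CPM in miR-125a-5p libraries and 3427 to 3848 CPM in control libraries. T and NK cell markers, chiefly NKG7, summed to 20.4 to 23.5 CPM in miR-125a-5p libraries and 16.2 to 23.6 CPM in control libraries, with CD3E at 0. B cell markers, chiefly PAX5, summed to 44.7 to 62.2 CPM in miR-125a-5p libraries and 53.1 to 86.4 CPM in control libraries. Summed erythroid, epithelial and fibroblast markers stayed at or below 3.20 CPM in every library. Nothing in the labels says that libraries of 1 group came from separate cultures, so p-values rest on the spread among these 6 libraries, and that spread may be technical.

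No complex I gene differed between the groups past the threshold. By edgeR's quasi-likelihood test with Benjamini-Hochberg adjustment at 0.05 over all genes tested, 0 of 37 subunits and 0 of 8 NDUFAF factors were called, against 4 genes (0.0272%) of the whole table, all lower. At an unadjusted p under 0.05 the count was also 0 of 37 and 0 of 8, where 5.92% of all genes lay (2.69% higher and 3.22% lower). The 2 groups of libraries did not overlap for 1 subunit in the higher direction. In the lower direction they did not overlap for 2 subunits, 1 factor and the readthrough gene. Of all genes 5.31% were apart in the higher direction and 5.9% in the lower. Fold changes of the 45 subunits and factors ran from 0.752 to 1.31, with 28 above 1 and 17 below. The standard error of the log2 fold change lay between 0.096 and 0.35 for single genes, so differences of that size were not resolved. Larger ones, such as -0.41 for NDUFA3, were not called either. In simulated counts, 48.5% of genes given a log2 change of 0.5 were called, and 91.8% of those given 1. There 134 genes had a change of 0.5, 134 of 1 and 132 of 2, none of them at low CPM. With so many changed genes the adjusted threshold is easier to pass than with the 4 calls here. These shares therefore overstate what could be called in these data. In bulk RNA, fewer cells of a type and less RNA per cell cannot be told apart.

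**Figure D1:**
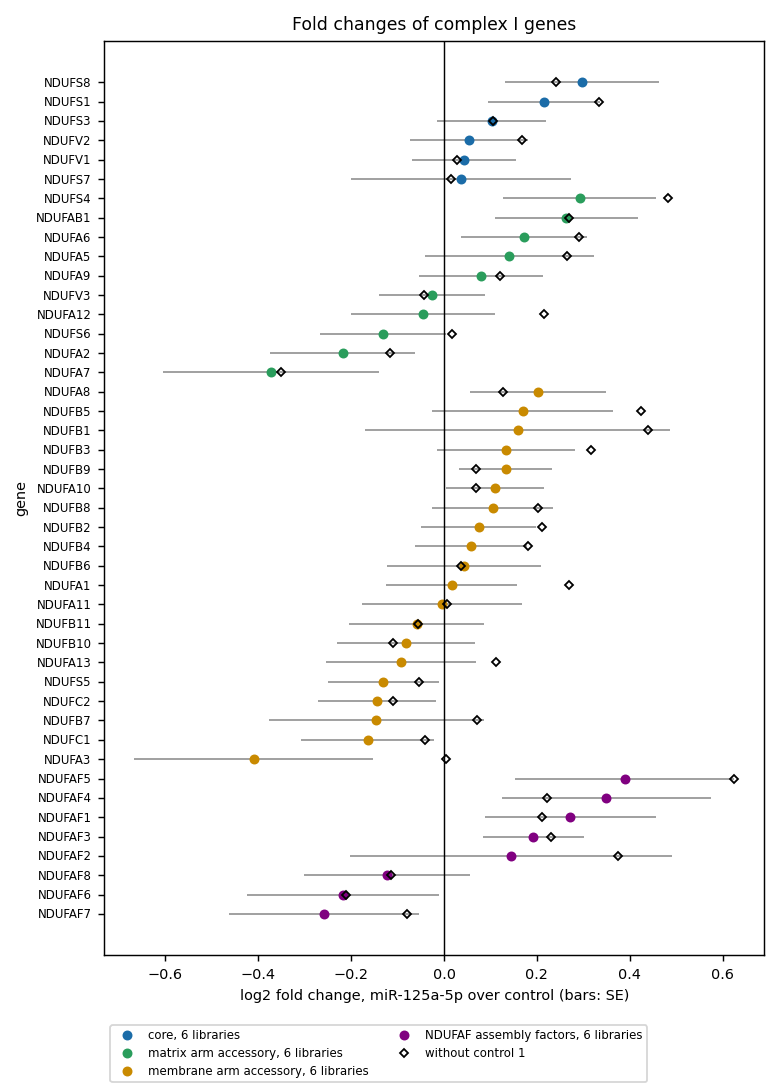
Log2 fold change of complex I genes, miR-125a-5p over control, on the x axis, with genes down the page coloured by class and bars of 1 SE (3 libraries each). Open diamonds give the value without control library 1. Over all 37 subunits, 1 of them not drawn, 29 then lie above 0, against 23 with all 6 libraries.

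The core subunits are the conserved proteins that carry flavin, iron-sulfur clusters and part of the quinone site. All 7 had a log2 fold change above 0, with a median of 0.054 and none past the threshold. That count rested on single libraries, since NDUFS7, NDUFS3, NDUFV1 and NDUFV2 each had a value below 0 when 1 library was left out, and the core median then ran from 0.033 to 0.14. Over all genes the median was 0.0011 and 50.2% lay above 0. NDUFV1, which binds NADH and flavin, had 57.7, 62.3 and 60.8 CPM in miR-125a-5p libraries and 57.6, 63.5 and 54.6 CPM in control libraries. The groups overlapped and the log2 fold change was 0.043 (SE 0.11). NDUFV2, its iron-sulfur partner, had 53.0, 49.6 and 57.1 CPM in miR-125a-5p libraries and 59.1, 42.6 and 51.8 CPM in control libraries. The widest gap there was between control libraries 1 and 2, and the log2 fold change was 0.054 (SE 0.13). Of the exonic bases of NDUFV2, 41.1% also lie in another annotated gene on the same strand.

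NDUFS1, the largest core subunit, had 78.1, 78.0 and 85.4 CPM in miR-125a-5p libraries and 80.3, 55.9 and 71.5 CPM in control libraries. Control library 1 lay among the miR-125a-5p libraries and control library 2 was the lowest of the 6. The log2 fold change was 0.22 (SE 0.12, edgeR adjusted p = 0.864). NDUFS8, which carries iron-sulfur clusters close to the quinone site, had 21.0, 31.5 and 27.3 CPM in miR-125a-5p libraries and 20.1, 24.6 and 20.4 CPM in control libraries. Its log2 fold change of 0.30 was the highest of the 37 subunits (SE 0.17, edgeR adjusted p = 0.864), and the groups overlapped because miR-125a-5p library 1 lay below control library 2.

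NDUFS3, a core subunit of the matrix arm, had 58.4, 61.5 and 75.6 CPM in miR-125a-5p libraries and 61.1, 59.9 and 61.0 CPM in control libraries, and miR-125a-5p library 3 alone stood above the rest (log2 fold change 0.10, SE 0.12). NDUFS7, which holds the cluster that hands electrons to ubiquinone, had 9.28, 14.1 and 9.34 CPM in miR-125a-5p libraries and 10.4, 13.7 and 7.95 CPM in control libraries. The second library was the highest in each group and the log2 fold change was 0.036 (SE 0.24). Of the annotated exonic bases of NDUFS7, 49.2% also lie in a gene on the opposite strand. The sources used here do not say whether counting used strand, so reads of the 2 genes may be mixed.

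The 10 accessory subunits of the matrix arm were split, 5 with a log2 fold change above 0 and 5 below. Their median was 0.026 with all libraries and 0.17 without control library 1. NDUFS4, a subunit whose loss in mice is a model of Leigh syndrome, had 29.1, 27.7 and 26.9 CPM in miR-125a-5p libraries and 28.4, 17.4 and 22.4 CPM in control libraries. Its log2 fold change was 0.29 (SE 0.17, edgeR adjusted p = 0.866), with control library 1 level with the miR-125a-5p libraries. NDUFAB1, the mitochondrial acyl carrier protein, which also serves fatty acid synthesis, had 25.5, 23.8 and 22.2 CPM in miR-125a-5p libraries and 20.1, 19.4 and 19.99 CPM in control libraries. It was the only subunit with every miR-125a-5p library above every control library. Among all genes tested 5.31% were separated in this direction, and its log2 fold change of 0.26 had an edgeR adjusted p of 0.882 (SE 0.15).

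The lowest matrix arm fold changes belonged to NDUFA7 and NDUFA2, small accessory subunits. NDUFA7 had 6.34, 7.93 and 11.5 CPM in miR-125a-5p libraries and 11.5, 11.2 and 10.6 CPM in control libraries. Its log2 fold change was -0.37 (SE 0.23, edgeR adjusted p = 0.884), and miR-125a-5p library 3 lay level with the controls. NDUFA7 shares 75.9% of its exonic bases with another annotated gene on the same strand. NDUFA2, one of the seed site holders shown above, had 19.5, 21.5 and 21.1 CPM in miR-125a-5p libraries and 27.4, 22.3 and 22.5 CPM in control libraries. The groups did not overlap, a state that 5.9% of all genes showed in the lower direction. Its log2 fold change was -0.22 (SE 0.16, edgeR adjusted p = 0.898) with all 6 libraries and -0.12 (SE 0.17) without control library 1.

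The remaining matrix arm subunits had smaller differences. NDUFA5 had 17.7, 15.0 and 17.2 CPM in miR-125a-5p libraries and 17.6, 14.0 and 13.7 CPM in control libraries (log2 fold change 0.14, SE 0.18). NDUFA6, which belongs to the LYR motif protein family, had 39.2, 39.7 and 47.2 CPM in miR-125a-5p libraries and 43.2, 35.5 and 33.0 CPM in control libraries (log2 fold change 0.17, SE 0.13). The groups overlapped for both. NDUFA9, which lies near the quinone site, averaged 37.3 ± 4.36 CPM in miR-125a-5p libraries and 35.3 ± 2.55 CPM in control libraries (SD, n = 3 each). NDUFV3 averaged 67.2 ± 8.81 CPM in miR-125a-5p libraries and 68.5 ± 3.61 CPM in control libraries (SD, n = 3 each), and NDUFS6 37.5 ± 2.12 CPM in miR-125a-5p libraries and 41.0 ± 7.03 CPM in control libraries (SD, n = 3 each). NDUFA12 had 47.3, 53.0 and 40.2 CPM in miR-125a-5p libraries and 64.2, 40.3 and 40.4 CPM in control libraries, so that 1 control library held both the highest value and most of the spread. The log2 fold change of NDUFA12 was -0.046 with all libraries and 0.21 without control library 1, and that of NDUFS6 was -0.13 with all libraries and 0.017 without it.

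The 20 accessory subunits of the membrane arm had 11 log2 fold changes above 0 and 9 below, with a median of 0.030 and a highest value of 0.20. That highest value was NDUFA8, a cysteine-rich subunit of the intermembrane space face, with 36.1, 27.5 and 31.1 CPM in miR-125a-5p libraries and 24.7, 26.9 and 30.7 CPM in control libraries. The lowest log2 fold change of all 46 genes was -0.41 for NDUFA3, a small subunit of the membrane arm. It had 7.63, 9.13 and 10.5 CPM in miR-125a-5p libraries and 18.0, 10.2 and 7.95 CPM in control libraries. The high value of control library 1 carried the difference. The log2 fold change had an edgeR adjusted p of 0.884 (SE 0.26) and was 0.0038 (SE 0.25) without that library.

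NDUFB7 was alike, with 7.63, 11.4 and 12.7 CPM in miR-125a-5p libraries and 14.9, 9.71 and 10.4 CPM in control libraries. Its log2 fold change was -0.15 (SE 0.23) with all libraries and 0.072 without control library 1. NDUFA1, an X-linked subunit needed for assembly of the membrane arm, had 78.5, 84.3 and 77.3 CPM in miR-125a-5p libraries and 104, 59.8 and 72.7 CPM in control libraries. The control libraries there spanned the miR-125a-5p libraries on both sides, and the log2 fold change was 0.017 (SE 0.14) with all libraries and 0.27 (SE 0.12) without control library 1. Of the exonic bases of NDUFA1, 44.5% overlap RNF113A on the opposite strand.

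NDUFC2 was the membrane arm subunit whose groups did not overlap, with 35.8, 36.5 and 32.9 CPM in miR-125a-5p libraries and 40.7, 36.7 and 38.9 CPM in control libraries (log2 fold change -0.14, SE 0.13, edgeR adjusted p = 0.919). Of all genes 5.9% were apart in the lower direction. The gap between miR-125a-5p library 2 and control library 2 was small against the spread within either group. The readthrough gene NDUFC2-KCTD14 had 21.6, 21.3 and 18.0 CPM in miR-125a-5p libraries and 23.9, 22.0 and 23.7 CPM in control libraries (log2 fold change -0.20, SE 0.16, edgeR adjusted p = 0.918). Its groups did not overlap either. The 2 genes share 431 exonic bases, and how reads there were counted is not given, so the 2 rows may share reads. NDUFC1, the other subunit of that name, had 41.1, 39.7 and 29.9 CPM in miR-125a-5p libraries and 48.2, 39.0 and 36.9 CPM in control libraries, and its groups overlapped. For NDUFC1 the log2 fold change was -0.16 with all libraries and -0.041 without control library 1.

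NDUFB9 had 159, 181 and 152 CPM in miR-125a-5p libraries and 137, 150 and 162 CPM in control libraries (log2 fold change 0.13, SE 0.10). NDUFS5 had 44.4, 48.5 and 46.4 CPM in miR-125a-5p libraries and 56.1, 45.6 and 50.6 CPM in control libraries (log2 fold change -0.13, SE 0.12). NDUFA11, related to the TIM17 family of translocase proteins, had 15.7, 17.6 and 15.9 CPM in miR-125a-5p libraries and 16.8, 15.5 and 17.1 CPM in control libraries, with a log2 fold change of -0.004 (SE 0.17). None of these 3 separated the groups. NDUFA10, a relative of deoxynucleoside kinases, averaged 73.8 ± 2.92 CPM in miR-125a-5p libraries and 68.4 ± 3.56 CPM in control libraries (SD, n = 3 each). NDUFA13, also known as GRIM-19, averaged 25.4 ± 1.10 CPM in miR-125a-5p libraries and 27.0 ± 6.24 CPM in control libraries (SD, n = 3 each), with a log2 fold change of -0.093, or 0.11 without control library 1.

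The 9 other NDUFB subunits, small proteins of the distal membrane arm, had log2 fold changes from -0.082 for NDUFB10 to 0.17 for NDUFB5, and each overlapped between the groups. NDUFB5 averaged 24.3 ± 5.70 CPM in miR-125a-5p libraries and 21.6 ± 6.29 CPM in control libraries, NDUFB3 49.0 ± 9.68 CPM in miR-125a-5p libraries and 44.6 ± 9.31 CPM in control libraries (SD, n = 3 each). NDUFB1 averaged 4.74 ± 0.977 CPM in miR-125a-5p libraries and 4.22 ± 1.29 CPM in control libraries (SD, n = 3 each). NDUFB2, NDUFB4, NDUFB6 and NDUFB8 lay between 0.042 and 0.10 on the log2 scale, and NDUFB11 at -0.059. Of their exonic bases, 65.4% of NDUFB8 and 44.9% of NDUFB11 also lie in another annotated gene. For NDUFB2, 38.9% also lie in BRAF on the opposite strand.

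The 8 NDUFAF factors act at different steps, and their fold changes differed in sign, 5 above 0 and 3 below, with a median of 0.17. NDUFAF1, part of the intermediate complex that builds the membrane arm, had 24.2, 17.3 and 16.5 CPM in miR-125a-5p libraries and 14.7, 18.2 and 15.1 CPM in control libraries (log2 fold change 0.27, SE 0.19). NDUFAF2, a paralogue of NDUFA12 that occupies its place during assembly, had 6.23, 6.20 and 3.23 CPM in miR-125a-5p libraries and 6.08, 2.49 and 5.52 CPM in control libraries (log2 fold change 0.14, SE 0.35). Both overlapped between groups, and NDUFAF2 had the lowest single count of any member, 21.

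NDUFAF3 and NDUFAF4 are partner proteins of early assembly. NDUFAF3 had 78.3, 85.4 and 96.5 CPM in miR-125a-5p libraries and 80.1, 72.9 and 74.7 CPM in control libraries (log2 fold change 0.19, SE 0.11, edgeR adjusted p = 0.865). NDUFAF4 had 12.1, 11.8 and 9.58 CPM in miR-125a-5p libraries and 7.26, 8.17 and 10.9 CPM in control libraries (log2 fold change 0.35, SE 0.23, edgeR adjusted p = 0.884). For each of them 1 control library lay among the miR-125a-5p libraries.

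NDUFAF5 hydroxylates an arginine of NDUFS7, and NDUFAF8 stabilises NDUFAF5. NDUFAF5 had the highest log2 fold change of the 46 genes, 0.39 (SE 0.24, edgeR adjusted p = 0.884). Its levels were 12.5, 10.9 and 9.46 CPM in miR-125a-5p libraries and 10.8, 6.16 and 7.95 CPM in control libraries, and control library 1 lay among the miR-125a-5p libraries. NDUFAF8 had 14.0, 13.4 and 14.7 CPM in miR-125a-5p libraries and 15.5, 15.2 and 15.1 CPM in control libraries. Its groups did not overlap, as for 5.9% of all genes in the lower direction. The log2 fold change was -0.12 (SE 0.18, edgeR adjusted p = 0.959). The pair therefore had log2 fold changes of opposite sign, both within 2 SE of 0.

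NDUFAF7, a methyltransferase of early assembly, had 10.8, 12.3 and 16.0 CPM in miR-125a-5p libraries and 19.1, 13.1 and 14.4 CPM in control libraries (log2 fold change -0.26, SE 0.20, edgeR adjusted p = 0.917, or -0.081 without control library 1). NDUFAF6, needed early in assembly, had 10.1, 10.3 and 9.46 CPM in miR-125a-5p libraries and 11.8, 10.1 and 12.9 CPM in control libraries (log2 fold change -0.22, SE 0.21). The groups overlapped for both.

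**Figure D2:**
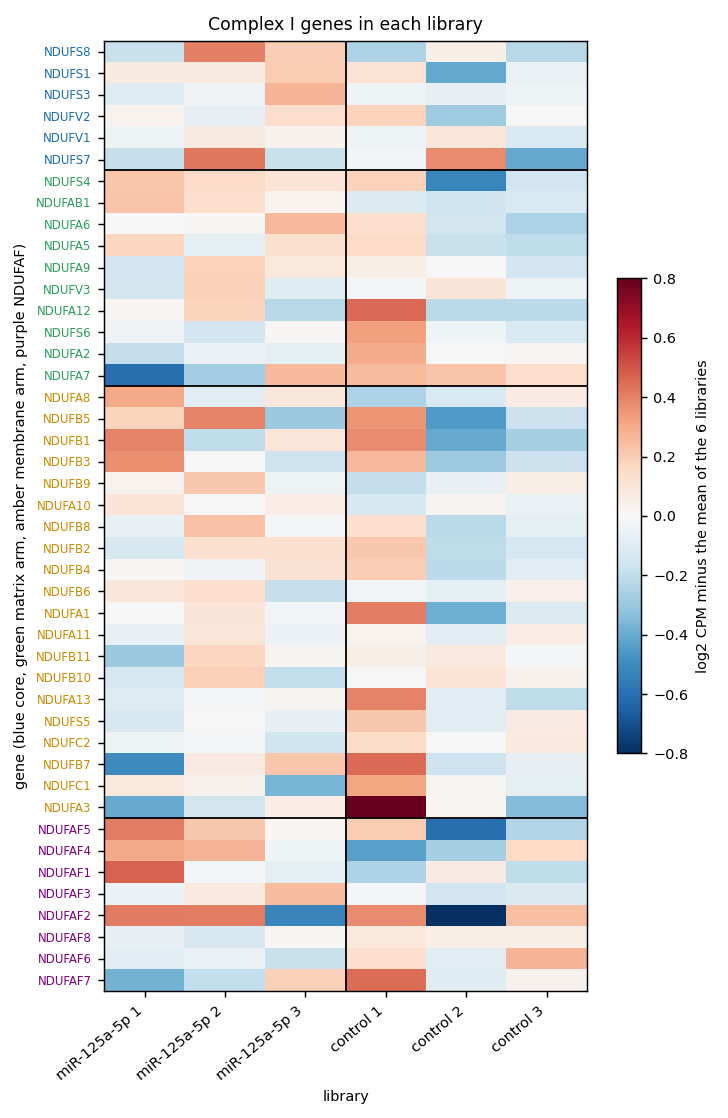
Heat map of log2 CPM minus the mean of the 6 libraries, with genes in rows by class and libraries in columns, the miR-125a-5p libraries to the left of the control libraries. Control library 1 is the highest of the 6 for 13 of 37 subunits, mostly membrane arm accessory ones.

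Subunits and assembly factors were set side by side over all 6 columns. The summed level of the 37 subunits was 1551, 1645 and 1580 CPM in miR-125a-5p libraries and 1680, 1449 and 1490 CPM in control libraries. The mean was 1592 ± 48.2 CPM in miR-125a-5p libraries and 1540 ± 123 CPM in control libraries (SD, n = 3 each), and control library 1 held the highest sum of all. The summed level of the 8 factors was 168, 168 and 176 CPM in miR-125a-5p libraries and 165, 146 and 157 CPM in control libraries. Here the groups did not overlap, with 170 ± 4.45 CPM in miR-125a-5p libraries and 156 ± 9.51 CPM in control libraries (SD, n = 3 each). NDUFAF3 alone made up 86.8 CPM of the first mean and 75.9 CPM of the second, and its own groups overlapped. Of the 8 factors, 3 had a log2 fold change below 0. Their median deviation from each gene's own mean overlapped too, at -0.012 to 0.12 (miR-125a-5p) against -0.12 to 0.11 (control), on the log2 scale. How often such sums lie apart for other genes was not tested. The median log2 fold change of the subunits minus that of the factors was -0.13. It ran from -0.20 without miR-125a-5p library 3 to 0.017 without miR-125a-5p library 1, and was -0.0029 without control library 2. A difference in response between subunits and factors was thus not stable to the choice of libraries.

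Levels of the classes were compared per kb of length, with exonic length first. In each library the median log2 CPM per kb of the subunits was above that of the factors, by 1.83, 1.87 and 2.10 in miR-125a-5p libraries and by 1.60, 2.28 and 1.64 in control libraries. The mean gap was 1.93 ± 0.14 in miR-125a-5p libraries and 1.84 ± 0.38 in control libraries (SD of the log2 difference, n = 3 each), which is 3.82-fold in miR-125a-5p libraries and 3.59-fold in control libraries. With coding length the log2 gap was 1.90 ± 0.16 in miR-125a-5p libraries and 2.08 ± 0.13 in control libraries (SD, n = 3 each). With median transcript length it was 2.46 ± 0.12 in miR-125a-5p libraries and 2.22 ± 0.20 in control libraries (SD, n = 3 each). Factor transcripts were the scarcer class in both groups by each length, while the sign of the difference between the groups turned with the length used and was not tested.

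Among the subunits the highest level per kb of exonic length belonged to NDUFA1, at 104 CPM per kb in miR-125a-5p libraries and 103 CPM per kb in control libraries. NDUFS5 followed at 84.7 CPM per kb in miR-125a-5p libraries and 92.6 CPM per kb in control libraries. The lowest were NDUFA5, at 2.74 CPM per kb in miR-125a-5p libraries and 2.48 in control libraries, and NDUFS7, at 3.31 CPM per kb in miR-125a-5p libraries and 3.25 in control libraries. The order of single genes rests on the length used. By median transcript length NDUFB9 ranked 1, NDUFA1 4 and NDUFS5 7. NDUFA5 ranked 37 of 37 subunits by exonic length, which includes a long 3′ UTR, and 26 by coding length. Among the factors NDUFAF3 was highest, at 40.9 CPM per kb in miR-125a-5p libraries and 35.7 in control libraries, and NDUFAF5 lowest, at 1.97 CPM per kb in miR-125a-5p libraries and 1.50 in control libraries.

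**Figure D3:**
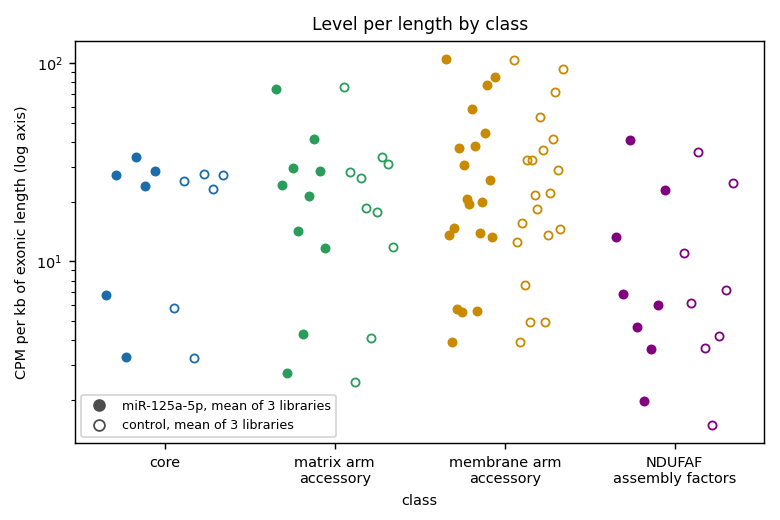
CPM per kb of exonic length (log axis) for complex I genes by class, filled points for the mean of the 3 miR-125a-5p libraries and open points for the mean of the 3 control libraries. The NDUFAF factors sit lower than most subunits, apart from NDUFAF3 and NDUFAF8.

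The control libraries disagreed among themselves over the accessory subunits. The median deviation of the 37 subunits from each gene's own mean was -0.03, 0.066 and 0.028 on the log2 scale in miR-125a-5p libraries. In control libraries 1, 2 and 3 it was 0.14, -0.082 and -0.081. Over all genes tested this median lay between 0.0032 and 0.0083 in the 6 libraries. The control libraries thus lay on both sides of the miR-125a-5p libraries.

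Control library 1 was the highest of the 6 for 13 of 37 subunits (35.1%), against 21.3% of all genes, and control library 2 was the lowest for 12 (32.4%), against 15.3% of all genes. The log2 ratio of control library 1 to the mean of the other 5 had a median of 0.17 over the subunits and -0.0097 over all genes. By class the median was 0.24 for the membrane arm, 0.19 for the matrix arm, 0.13 for the NDUFAF factors and -0.050 for the core. The highest ratios were 0.98 for NDUFA3, 0.54 for NDUFA12, 0.52 for NDUFB7, 0.52 for NDUFAF7 and 0.49 for NDUFA1. Of the 7 core subunits 2 lay above 0, against 15 of 20 in the membrane arm.

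Transcript length moved with this pattern. The median deviation in control library 1 was 0.052 for all genes under 1 kb, 0.036 for genes of 1 to 2 kb and -0.019 for genes over 8 kb, while the median exonic length was 1429 bases for the subunits and 3502.5 bases for all genes. The part of length in the deviation of control library 1 was not tested. With the length trend of each library removed, the median log2 fold change of the subunits was 0.038, against 0.043 without that step.

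**Figure D4:**
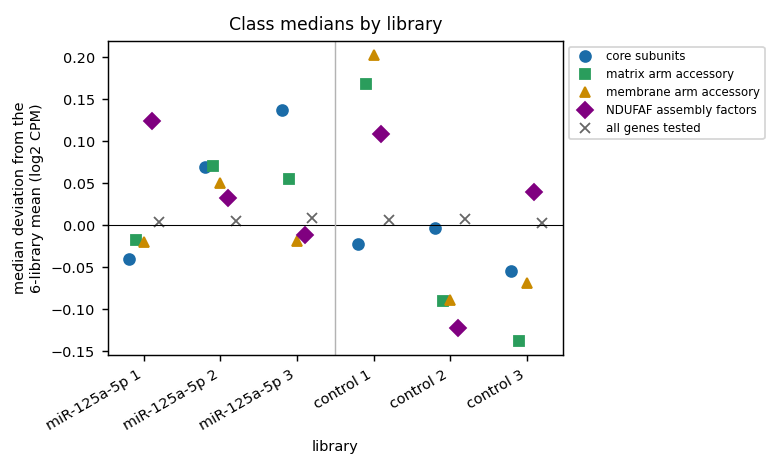
Median deviation from each gene's 6-library mean (log2 CPM) for every class and for all genes, with the miR-125a-5p libraries to the left of the control libraries. Control library 1 lies above 0.1 for all classes but the core, at -0.023, and control libraries 2 and 3 lie below 0 for most.

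Control library 1 held the highest summed level of the subunits, so leaving it out was bound to raise their values as a set. The median log2 fold change was then 0.10, with 29 of 37 above 0, while 50.4% of all genes lay above 0. By class the median was 0.10 for the core, 0.17 for the matrix arm and 0.070 for the membrane arm. For the NDUFAF factors it was 0.22. By edgeR 6 subunits had an unadjusted p under 0.05, all higher in miR-125a-5p libraries, against 3.32% of all genes higher at that level. These were NDUFS4 (log2 fold change 0.48, adjusted p = 0.586), NDUFS1 (0.33, adjusted p = 0.605), NDUFB5 (0.42), NDUFB3 (0.32), NDUFA6 (0.29) and NDUFA1 (0.27). They come from both arms and from core and accessory classes. Of the factors NDUFAF5 had a log2 fold change of 0.62 (edgeR adjusted p = 0.699). None of the 46 genes passed the adjusted threshold in that fit either, and it rests on 2 control libraries. Without control library 2 instead, the lowest for 12 of 37 subunits, the log2 fold change of NDUFA1 was -0.15. That of NDUFS1 was then 0.084 and that of NDUFS4 0.13.

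Sites for the miR-125a-5p seed were counted in the annotated transcripts. An 8mer or 7mer lay in the longest 3′ UTR of 5 of 37 subunits (13.5%) and 0 of 8 factors, against 24.3% of the 12799 tested genes that had a 3′ UTR to search. The difference in these shares was not tested. Any site, 6mers (TCAGGG) included, lay in 9 subunits (24.3%) and 1 factor, NDUFAF5, against 37.3% of genes. The longest 3′ UTR had a median of 451 bases in the subunits, 563.5 bases in the factors and 1363 bases in all genes, and the part of this length in the site counts was not tested. With the shortest annotated 3′ UTR the share with any site was 2.70% of subunits, NDUFA2 alone, and 12.5% of factors, against 16.3% of genes.

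The log2 fold changes of the 5 holders differed in sign, and none was past the threshold. NDUFA11, with an 8mer, a 7mer and a 6mer, had -0.004 (SE 0.17), and NDUFA2 had -0.22 (SE 0.16). NDUFB9 had 0.13 (SE 0.10), NDUFA5 0.14 (SE 0.18) and NDUFA6 0.17 (SE 0.13). Of the 5, only NDUFA2 also has a site in its shortest annotated 3′ UTR. Which 3′ UTR these cells use was not tested. The median of the 5 was 0.13, against 0.026 in the 28 subunits with no site. In coding sequence 5 of 37 subunits (13.5%) held an 8mer or 7mer, among them NDUFS3 and NDUFV3 with an 8mer. Of the 8 factors 0 did, against 25.2% of genes. The median coding length was 492 bases in the subunits, 769.5 in the factors and 1437 in all genes. The part of this length in the counts was not tested.

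The promoters of the subunits, 250 bases before to 50 after the annotated start, were searched on both strands for motifs of the factors known to drive nuclear genes of the respiratory chain. A promoter of RefSeq (GRCh38.p14) was found for 32 of 37 subunits, 7 of 8 factors and 11451 tested genes. The YY1 motif AAGATGGC lay in 6 subunit promoters (18.8%) and 0 factor promoters, against 5.09% of all. In all 6 it lay after the start, 11 to 26 bases downstream, on the gene's own strand. The motif includes the letters ATG, and its overlap with the start codon of each gene was not tested. The 6 windows are shown for that shared place, with the motif in capitals.
NDUFS4 (chr5:53560660-53560667, plus strand): tgcctgcagcAAGATGGCggcggtgtca
NDUFA9 (chr12:4649124-4649131, plus strand): attgtgggaaAAGATGGCggctgccgca
NDUFS7 (chr19:1383924-1383931, plus strand): ggccgaggccAAGATGGCggtgctgtca
NDUFA7 (chr19:8321354-8321361, minus strand): tcgcggacggAAGATGGCgtccgccacc
NDUFA3 (chr19:54102876-54102883, plus strand): cgcggagacaAAGATGGCtgcgagtaag
NDUFA6 (chr22:42090740-42090747, minus strand): atgctttggcAAGATGGCggggagcggc

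The log2 fold changes of these 6 genes differed in sign, and none was past the threshold. They were 0.29 for NDUFS4 (SE 0.17), 0.079 for NDUFA9 (SE 0.13) and 0.036 for NDUFS7 (SE 0.24). For NDUFA7 the value was -0.37 (SE 0.23), for NDUFA3 -0.41 (SE 0.26) and for NDUFA6 0.17 (SE 0.13). Without control library 1 they were 0.48, 0.12, 0.014, -0.35, 0.0038 and 0.29 in the same order. Whether these genes respond alike was not resolved.

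The core TGCGCA of the NRF1 motif lay in 10 subunit promoters (31.2%) and 2 factor promoters (28.6%), against 13.2% of all. The ETS motif CCGGAAG bound by GABPA lay in 5 (15.6%), against 18.6%, the cyclic AMP response element TGACGTCA in 2 (6.25%), against 3.1%, and the SP1 motif GGGCGGG in 9 (28.1%), against 50.5%. CCAAT lay in 8 (25%), against 36.8%, and TATAAA in 3 (9.38%), against 6.59%. Of the 7 factor promoters 3 held CCAAT (42.9%), 1 each held the ETS and SP1 motifs (14.3%), and 0 held the cyclic AMP element or TATAAA. A match describes the letters in the window and does not show that a factor binds there.

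Other genes of the pathway gave the same picture of small differences. Of 13 further assembly factors outside the NDUFAF names, 7 had a log2 fold change above 0 and 0 were called. The smallest p among them was that of DMAC1, a factor of the distal membrane arm, with 27.7, 23.9 and 27.9 CPM in miR-125a-5p libraries and 24.1, 21.8 and 14.9 CPM in control libraries (log2 fold change 0.38, SE 0.17, edgeR adjusted p = 0.814). Its groups overlapped through control library 1. TMEM70 (log2 fold change 0.25, edgeR adjusted p = 0.885) and NUBPL (0.26, adjusted p = 0.940), which delivers iron-sulfur clusters, were next by p.

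Of 10 regulators of mitochondrial genes, 8 had a log2 fold change above 0, against 50.2% of all genes, and 0 were called, against 0.0272%. The coactivator PPARGC1A was scarce, with 1.18, 1.85 and 1.80 CPM in miR-125a-5p libraries and 2.26, 3.67 and 2.87 CPM in control libraries. Every miR-125a-5p library was below every control library, as for 5.9% of all genes, at 10 to 31 counts per library, and the log2 fold change was -0.85 (SE 0.44, edgeR adjusted p = 0.855). GABPA and the mitochondrial transcription factor TFAM were higher in every miR-125a-5p library than in any control library, as were 5.31% of all genes. The log2 fold change of GABPA was 0.16 (edgeR adjusted p = 0.913) and that of TFAM 0.19 (edgeR adjusted p = 0.919). NRF1 and YY1 had log2 fold changes of 0.027 and 0.013.

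COXFA4, formerly named NDUFA4 and now placed in complex IV, lies outside the naming rule. It had 119, 110 and 96.9 CPM in miR-125a-5p libraries and 93.3, 84.4 and 95.8 CPM in control libraries. The groups did not overlap, as for 5.31% of all genes in the higher direction. The lowest miR-125a-5p library and the highest control library were close (log2 fold change 0.25, SE 0.11, edgeR adjusted p = 0.787). The 7 complex I subunits encoded by the mitochondrial genome had 0 rows in the table and are not analysed here.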

How the data were processed

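The values deposited by the authors are raw gene counts in 1 table of 6 libraries, 3 per group, not normalized. The submitters' processing notes name bcl2fastq, TopHat, edgeR and the build hg19, without versions. Counting tool, annotation and strand setting were not given in the sources used here. Rows were named from RefSeq (26204 of 26347, 99.5%), and 0 columns belonged to no library. The members and lists were chosen with earlier results of these data known.

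The test was that of edgeR 4.0.16 under R 4.3.3 (filterByExpr, TMM scaling by the trimmed mean of M-values, quasi-likelihood, Benjamini-Hochberg adjustment over 14731 genes, threshold 0.05). The SE is the log2 fold change divided by the square root of F. The common biological coefficient of variation was 12.5%. A chi-square per gene between libraries of 1 group was 4.00 to 12.1, so none agreed within sampling noise.

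1 gene is not reported or drawn here. Named genes were the core, the largest and smallest differences per class, those with groups apart, seed site holders and extremes per kb, and other members by means or ranges. Genes named in the fit without control library 1, those with promoter motifs and COXFA4 were named after their values were seen. Lengths, 3′ UTRs (at least 20 bases) and overlaps come from GENCODE 29 and promoters from RefSeq GRCh38.p14. Both differ from the counting build, so coordinates describe the annotation only. Of the members, 19 share exonic bases with another gene and 21 have named pseudogenes (69 in all, 1 with a row). The steps were tested on simulated data. Alternatives used DESeq2 1.42.0, limma 3.58.1 voom, other scaling and filters, length and GC trends (loess, span 0.5), a replicate block and each library left out.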

Additional observations from a re-analysis of the deposited data

How the results depend on the processing

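No complex I gene was called in any of 14 other fits, and the smallest adjusted p of a named member in any of them was 0.578. Over all genes, 0 were higher and 4 lower. Without a count filter there were 11 and 41, with DESeq2 2 and 11, and with the replicate block 9 were lower. With 1 library left out, 0 to 2 were higher and 3 to 14 lower (14 without control library 3). The cause of these moves was not tested. No pairing by replicate number was seen (correlations of deviations 0.056, 0.014 and -0.016), and the block changed no call of a member. Counting noise lowers such correlations, so they do not settle whether libraries of 1 number shared a batch.

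With 1 library left out, the median log2 fold change ran from 0.0064 to 0.10 for the subunits and from 0.017 to 0.24 for the NDUFAF factors, and the subunits minus the factors from -0.20 to 0.017. Of 28 named members, 8 changed sign, NDUFA1 (-0.15 to 0.27), NDUFA11 (-0.059 to 0.024), NDUFA3 (-0.64 to 0.0038), NDUFB7 (-0.30 to 0.072), NDUFS3 (-0.020 to 0.17), NDUFS7 (-0.20 to 0.25), NDUFV1 (-0.0052 to 0.10) and NDUFV2 (-0.061 to 0.17). Outside these 28, single genes were followed only without control library 1, where NDUFA12 (0.21), NDUFA13 (0.11) and NDUFS6 (0.017) turned positive. In the other settings 1 of 224 values did, NDUFA11 at 0.017 with the GC trend removed. With median transcript length, an alternative chosen after seeing the data, the level of subunits over factors was 2.34 on the log2 scale, against 1.89. Members with a seed site numbered 10, and 2 with the shortest 3′ UTR.

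At 21 counts, the lowest for a member, counting error alone is large, and 3 libraries per group limit what could be resolved.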
